A study of Mus musculus with 6 samples.

Results

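The globin genes of the mouse were followed across craniofacial tissue of embryos with and without *Rbfox2* in the neural crest. They were taken as the 7 table entries whose gene name is *Hbb-y*, *Hbb-bh1*, *Hbb-b1*, *Hbb-b2*, *Hba-x*, *Hba-a1* or *Hba-a2*, out of 38553 genes. Tissue of E12.5 embryos was dissected from 3 controls and 3 mutants, and poly(A)+ RNA was sequenced. The labels give every control as Rbfox2 flox/flox and list no Cre, while the methods of the study as a whole also allow controls with 1 floxed allele, some of them with Cre. Mutants were Rbfox2 flox/flox with Pax3Cre/+, a knock-in that puts Cre under the *Pax3* gene and is active in the dorsal neural tube, the neural crest and the somites. The mutants thus had 1 *Pax3* allele with the knock-in, and the mice were kept on mixed genetic backgrounds. The values are FPKM, the fragments mapped to a gene divided by the gene's length and by all mapped fragments, so that levels of different genes can be set side by side per length.

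Haemoglobin is built from a pair of alpha-class and a pair of beta-class globin chains, each holding a haem group. In the mouse, the first red cells are primitive erythroid cells from the yolk sac, which make embryonic globins and circulate with their nuclei, and definitive red cells from the fetal liver, which make adult globins, join them at about midgestation. The beta-class cluster holds the embryonic genes *Hbb-y* (epsilon-y) and *Hbb-bh1* (beta-h1) and the adult genes, and the alpha-class cluster holds the embryonic *Hba-x* (zeta) and the adult pair *Hba-a1* and *Hba-a2*. Within primitive cells, *Hbb-bh1* is known to give way to *Hbb-y*, and *Hba-x* to the adult alpha genes, as the cells mature. Red cells do not descend from the neural crest, and they reach this tissue through its vessels. In dissected tissue, fewer red cells and less globin RNA per cell cannot be told apart.

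In GRCm38 the 4 beta-class genes lie on the minus strand of chromosome 7, and each of the 7 members has 3 exons. *Hbb-y* (ENSMUSG00000052187) spans 103851749 to 103853216 and *Hbb-bh1* (ENSMUSG00000052217) 103841637 to 103843164. *Hbb-b1* (ENSMUSG00000052305) spans 103826534 to 103828096 and *Hbb-b2* (ENSMUSG00000073940) 103812524 to 103813996. The GENCODE annotation names the latter pair *Hbb-bs* and *Hbb-bt*, the names of the adult genes in the haplotype of the reference strain. Other mouse strains carry a haplotype in which the adult genes are the more divergent *Hbb-b1* and *Hbb-b2*, and which haplotype these embryos carried was not tested. On the plus strand of chromosome 11, *Hba-x* (ENSMUSG00000055609) spans 32276400 to 32278116, *Hba-a1* (ENSMUSG00000069919) 32283511 to 32284465 and *Hba-a2* (ENSMUSG00000069917) 32296489 to 32297298.

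The opening of each coding sequence, read from the GENCODE transcripts, is shown because it makes plain which members can be told apart by sequence. The start codon is in capitals.
Hbb-y: ATGgtgaactttactgctgaggaaaagacc
Hbb-bh1: ATGgttcacttcacagctgaggagaaggca
Hbb-b1: ATGgtgcacctgactgatgctgagaaggct
Hbb-b2: ATGgtgcacctgactgatgctgagaaggct
Hba-x: ATGtctctgatgaagaatgagagagctatc
Hba-a1: ATGgtgctctctggggaagacaaaagcaac
Hba-a2: ATGgtgctctctggggaagacaaaagcaac

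Over the whole coding sequence of 444 bases, *Hbb-b1* and *Hbb-b2* differed at 1 base, and over the 429 bases of the adult alpha genes, *Hba-a1* and *Hba-a2* also differed at 1 base. The embryonic genes were far more distinct. *Hbb-y* was 76.4% identical to *Hbb-bh1* and 74.3% identical to *Hbb-b1*, and *Hba-x* was 62.0% identical to *Hba-a1*. Of all stretches of 100 bases in a transcript, 62.6% of those in *Hbb-b1*, 54.8% in *Hbb-b2*, 56.5% in *Hba-a1* and 74.5% in *Hba-a2* also occurred in another member. None of the stretches in *Hbb-y*, *Hbb-bh1* and *Hba-x* did. How the authors assigned reads shared by copies is not given in the sources used here, so the FPKM of each single adult copy is uncertain. Sums over an adult pair and the embryonic genes are less exposed to this, although reads left out for matching both copies would lower an adult sum.

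Promoters (RefSeq, GRCm38.p6, 250 bases before to 50 after the start) were found for 6 of the 7 members, all except *Hbb-bh1*. They were searched on both strands for CACCC, the core of the box bound by the erythroid factor Klf1, for CCAAT, and for the TATA-type runs ATAAA and ATATAA, which can overlap. GATAA was searched as well. The start is that of RefSeq and can differ from the end of the GENCODE span given above. For *Hba-x*, *Hba-a1* and *Hbb-b1* the stretch shown lies within that span. The stretch with the CACCC nearest to the start is shown on the gene's strand, with the box in capitals, because it is an element that embryonic and adult members have in common.
Hbb-y, chr7:103853301-103853330, minus strand: atgacctggctcCACCCatgaggaccacgg
Hbb-b1, chr7:103828001-103828030, minus strand: tccgtagagccaCACCCtggtaagggccaa
Hbb-b2, chr7:103813995-103814024, minus strand: cctgcagggtaaCACCCtggcattggccaa
Hba-x, chr11:32276493-32276522, plus strand: gataacaggctcCACCCtgcaagccccctc
Hba-a1, chr11:32283600-32283629, plus strand: caagggcgtgtcCACCCtgcctggaggaca
Hba-a2, chr11:32296417-32296446, plus strand: caagggcgtgtcCACCCtgcctggaggaca

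All 6 promoters held CACCC, as did 57.5% of all 32851 promoters in the table. CCAAT was found in 5 of the 6, all except that of *Hba-x*, and in 37.4% of all promoters. ATATAA was found in 5 of the 6, all except that of *Hbb-y*, and in 9.82% of all promoters. ATAAA was found in those of *Hbb-y*, *Hba-x* and *Hbb-b2*, and in 40.01% of all promoters. GATAA was found in all 6, in *Hbb-y* on the opposite strand only, and in 25.4% of all promoters. These matches describe letters in the window and not binding.

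The samples themselves were checked before the globins were compared. *Rbfox2* was at 61.6 ± 3.29 FPKM (SD, n = 3) for controls and 36.2 ± 1.87 (SD, n = 3) for mutants, and every mutant was below every control. Mesenchyme genes of the tissue were present in every sample, such as *Prrx1* at 91.4 ± 7.19 and 86.1 ± 12.02 and *Twist1* at 77.4 ± 1.26 and 78.1 ± 12.01 (SD, n = 3 each). *Col1a1*, from the same list of 8 genes, was at 140 ± 19.9 for controls and 105 ± 20.5 for mutants (SD, n = 3 each). It was lower in every mutant than in any control, as were 2.37% of all genes tested below. The median log2 fold change of the 8 genes was -0.056, with 2 of them above 0. Control replicate 1 and mutant replicate 1 lay far from the remaining samples along the first principal component, which carried 54.7% of the variance. Y-linked genes had a mean FPKM of 14.4 and 13.9 in mutant replicates 1 and 2 and of at most 0.0541 in the other 4 samples, so the sexes were not balanced between the groups. The summed FPKM of all genes ran from 528123 to 590174, and the read count behind a single FPKM is unknown.

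*Hbb-y*, the main beta-class globin of primitive red cells, was the most abundant member in every sample. Its FPKM was 6611, 3441 and 3811 in control replicates 1, 2 and 3 and 6605, 4592 and 7358 in mutant replicates 1, 2 and 3. Among all 38553 genes it ranked between 1 and 7 in a sample. Control replicates 2 and 3 were the lowest of the 6 samples, and the groups overlapped because control replicate 1 was as high as mutant replicate 1.

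*Hbb-bh1*, the earlier of the embryonic beta-class genes, was present at much lower levels, 359, 147 and 226 FPKM among the controls and 446, 175 and 671 in the mutants. Its highest value, in mutant replicate 3, was 4.56 times its lowest, in control replicate 2, the widest range of any member. The FPKM of *Hbb-y* was between 10.96 and 26.2 times that of *Hbb-bh1*, with the lowest ratio in mutant replicate 3 and the highest in mutant replicate 2.

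*Hba-x*, the embryonic alpha-class gene, was at 1275, 489 and 574 FPKM among the controls and 1348, 581 and 1339 in the mutants. The samples split into a high set, made of both first replicates and mutant replicate 3, and a low set of the remaining samples. *Hbb-y* and *Hbb-bh1* were also highest in the samples of this high set.

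The adult alpha genes were abundant as well. *Hba-a1* was at 1478, 668 and 728 FPKM among the controls and 1378, 1083 and 1053 in the mutants. *Hba-a2* was at 783, 438 and 417 among the controls and 766, 645 and 622 in the mutants. For both genes the 3 mutants lay between control replicate 1, which was highest, and control replicates 2 and 3, which were lowest.

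The adult beta genes had the lowest means of the 7 members. *Hbb-b1* was at 248, 327 and 153 FPKM among the controls and 241, 369 and 198 in the mutants, so that the second replicate was highest and the third lowest in each group. *Hbb-b2* was at 326, 79.7 and 117.5 among the controls and 145, 102 and 234 in the mutants, with control replicate 1 highest and control replicate 2 lowest. The 3 highest samples of *Hbb-b2* were those of *Hba-x*, and those of *Hbb-b1* were not.

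Averaged over the 6 samples, the members ran in the order *Hbb-y* (5403 ± 1659, SD), *Hba-a1* (1065 ± 329), *Hba-x* (935 ± 425), *Hba-a2* (612 ± 157), *Hbb-bh1* (338 ± 199), *Hbb-b1* (256.04 ± 80.2) and *Hbb-b2* (167 ± 94.3). *Hbb-y* was above *Hba-a1* in 6 of 6 samples. From *Hba-a1* to *Hbb-bh1*, each member was above the next in 5 of 6 samples, and their ranges overlapped. *Hbb-bh1* was above *Hbb-b1* in 4 of 6 samples, as was *Hbb-b1* above *Hbb-b2*, so these neighbours did not differ beyond their spread.

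**Figure D1:**
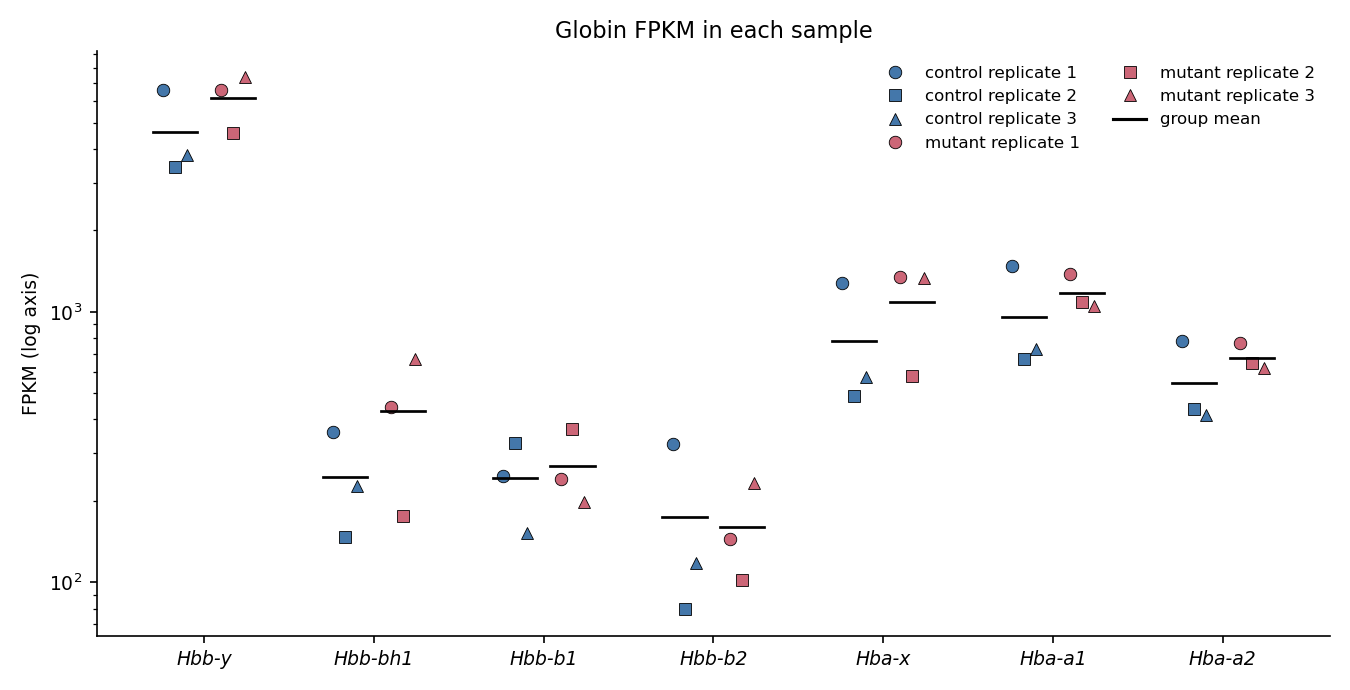
FPKM of each globin gene on a log axis in the 3 control (blue) and 3 mutant (red) samples, with the shape of a point giving the replicate number and a bar the group mean. *Hbb-y* lies far above the other members, and in every gene the values of the groups overlap.

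The other genes of the globin superfamily were near or at 0. *Hbq1b*, a theta-like gene between the adult alpha genes, was at 0.656 to 3.50 FPKM, and *Hbq1a* at 0.112 to 0.638. *Hbb-bh2* did not exceed 0.105, and *Hbb-bh0*, *Hbb-bh3* and *Hba-ps4* were listed at 0 in all samples. Of the globins of other tissues, the muscle globin *Mb* was at 0.550 to 1.93, cytoglobin (*Cygb*) at 2.16 to 4.44 and neuroglobin (*Ngb*) at 0.0169 to 0.178. None of these genes passed the filter on low values that was used for the test.

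The FPKM of the 7 members added up to 11081, 5590 and 6027 among the controls and 10929, 7549 and 11475 in the mutants, which was between 0.986% and 2.07% of all FPKM in a sample. Control replicate 1 and mutant replicates 1 and 3 were highest, control replicates 2 and 3 were lowest, and mutant replicate 2 lay between.

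Within the beta class, nearly all of the FPKM was embryonic. The embryonic share, *Hbb-y* and *Hbb-bh1* over all 4 genes, was 92.4%, 89.8% and 93.7% for controls and 94.8%, 91.01% and 94.9% for mutants. The means were 91.98% ± 1.99 and 93.6% ± 2.22 (SD, n = 3 each), a difference of 1.59 percentage points (exact permutation test, two-sided, p = 0.5, where the smallest p for 3 samples against 3 is 0.10). The mutant share was higher in each of the 3 replicate numbers, by 2.42, 1.19 and 1.16 points, while samples of 1 group differed by up to 3.91 points.

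Within the alpha class, the adult genes made up most of the FPKM. The embryonic share, *Hba-x* over all 3 genes, was 36.1%, 30.7% and 33.4% for controls and 38.6%, 25.2% and 44.4% for mutants. The means were 33.4% ± 2.70 and 36.07% ± 9.88 (SD, n = 3 each), a difference of 2.70 points (exact permutation test, two-sided, p = 0.7). The mutants held both the lowest and the highest share, and the direction differed between replicate numbers, at 2.55, -5.49 and 11.05 points. Without mutant replicate 3 the difference was -1.48 points, so its sign rests on that sample.

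**Figure D2:**
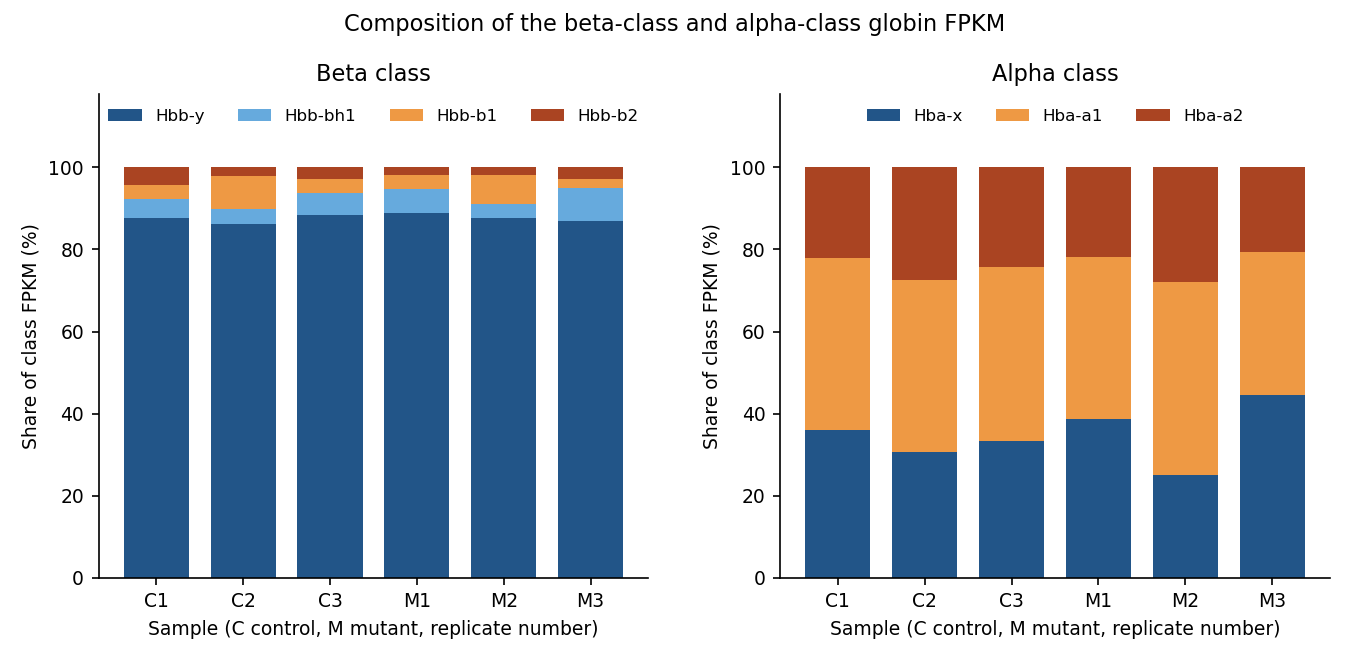
Share of the beta-class (left) and alpha-class (right) FPKM taken by each gene, in percent, for the 3 controls (C1 to C3) and 3 mutants (M1 to M3). Embryonic genes, in blue, fill 89.8% to 94.9% of the beta class and 25.2% to 44.4% of the alpha class.

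*Hbb-bh1* and *Hba-x* took their lowest and highest shares of their classes in the same samples. *Hbb-bh1* made up 3.35% of the beta class in mutant replicate 2 and 3.69% in control replicate 2, the samples with the lowest share of *Hba-x* in the alpha class. It made up 5.995% in mutant replicate 1 and 7.93% in mutant replicate 3, the samples with the highest share of *Hba-x*. *Hbb-y*, by contrast, kept a narrow share of the beta class, from 86.1% to 88.8%. Across the 6 samples, log2 FPKM of *Hbb-y* had a Pearson r of 0.97 with *Hba-x* and 0.92 with *Hbb-bh1*. It was 0.85 with *Hba-a1*, 0.84 with *Hba-a2* and 0.84 with *Hbb-b2*, so among the adult genes *Hbb-b1* alone, at -0.19, did not vary with *Hbb-y*. The values share their 6 libraries and describe them, and no test was made.

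The ratio of summed alpha-class to summed beta-class FPKM was 0.469, 0.399 and 0.399 for controls and 0.470, 0.441 and 0.356 for mutants. The difference was -0.0061 on the log2 scale (exact permutation test, two-sided, p = 1.0), which is smaller than the spread within either group. Its sign turned without control replicate 1, to 0.071, and without mutant replicate 3, to 0.11. Among the adult genes alone, the alpha FPKM was between 2.72 and 5.56 times the beta FPKM.

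The pairs of near-identical adult copies behaved differently from each other. *Hba-a1* had between 1.53 and 1.89 times the FPKM of *Hba-a2*, and the log2 FPKM of the genes had a Pearson r of 0.99 across the 6 samples, as a description. The ratio of *Hbb-b1* to *Hbb-b2* was 0.762, 4.11 and 1.299 for controls and 1.66, 3.62 and 0.849 for mutants, a range of 5.39 times, and their r was -0.36. Both second replicates had the highest ratios. In these samples *Hbb-b1* took 8.19% and 7.05% of the beta class, against 2.35% to 3.54% in the other 4. Whether this follows the haplotype of the embryos or the assignment of shared reads was not tested.

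**Figure D3:**
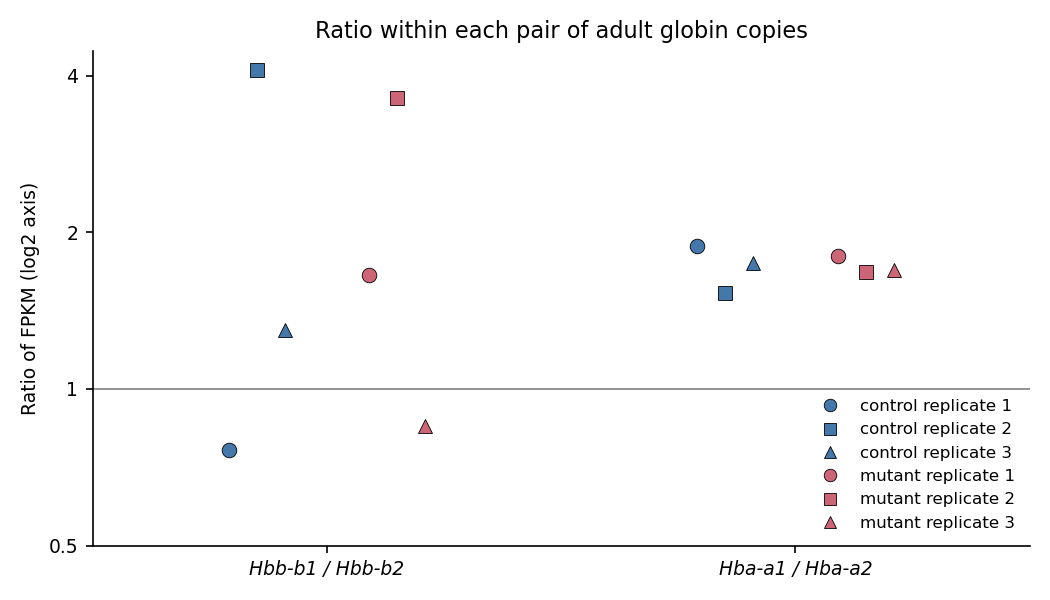
Ratio of the FPKM of the adult copies, on a log2 axis, for *Hbb-b1* over *Hbb-b2* (left) and *Hba-a1* over *Hba-a2* (right) in controls (blue) and mutants (red), with the shape of a point giving the replicate number. The alpha ratio stays between 1.53 and 1.89, and the beta ratio spreads from 0.762 to 4.11.

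Mutants and controls were compared by limma on log2(FPKM + 1) over the 10061 genes whose FPKM exceeded 5 throughout either group, a set that includes all 7 members. Fold changes are on this scale. No member had an adjusted p under 0.05 after Benjamini-Hochberg adjustment over all genes tested, where 0% of all genes did, and none had an unadjusted p under 0.05, where 1.66% of all genes did. None of the 7 had every mutant above every control, as 2.63% of all genes had, or every mutant below every control, as 2.37% had. The log2 fold change was above 0 for 7 of 7 members, with a median of 0.38, against 52.8% of all genes with a median of 0.0057. The members were measured in the same samples and were correlated, so they do not count as 7 separate observations.

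The largest estimate was that of *Hbb-bh1*, with a mean of 244 ± 107 FPKM for controls and 431 ± 248 for mutants (SD, n = 3 each). Its log2 fold change was 0.71 with a 95% interval from -0.51 to 1.92 (adjusted p = 1.0 from limma). *Hba-x* followed with 779 ± 432 and 1090 ± 440 FPKM, a log2 fold change of 0.52 with an interval from -0.54 to 1.57. *Hbb-y* was at 4621 ± 1733 and 6185 ± 1430, a log2 fold change of 0.45 with an interval from -0.25 to 1.16. For the embryonic genes, then, the mutant means were higher by less than the uncertainty, and the intervals reach from a modest decrease to an increase of 2.23-fold for *Hbb-y*, 2.98-fold for *Hba-x* and 3.79-fold for *Hbb-bh1*.

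The adult alpha genes had log2 fold changes of 0.38 (*Hba-a1*, 95% interval -0.34 to 1.09) and 0.37 (*Hba-a2*, -0.21 to 0.94). The adult beta genes were closest to 0, at 0.17 for *Hbb-b1* (-0.58 to 0.92) and 0.058 for *Hbb-b2* (-1.18 to 1.29). For *Hbb-b2* the arithmetic mean ran the other way, with 174 ± 132 FPKM for controls and 160.2 ± 67.3 for mutants (SD, n = 3 each), since control replicate 1 was far above the other controls. All 4 had an adjusted p of 1.0 in limma.

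The difference was uneven over the replicate numbers. Between the first replicates, *Hbb-y* differed by -0.0014 on the log2 scale, *Hba-a1* by -0.10 and *Hbb-b2* by -1.16. Between the second replicates the same genes differed by 0.42, 0.70 and 0.35, and between the third by 0.95, 0.53 and 0.99. *Hbb-bh1* and *Hba-x* were higher in the mutant in each of the 3 numbers, as were 13.6% of all genes tested, but most of their difference came from the third replicates, at 1.56 and 1.22. All 7 members were higher in the mutant in both the second and the third replicates. In the first replicates 5 of the 7 were lower in the mutant, by as little as -0.0014 for *Hbb-y*. The share of all genes with this pattern was not computed. The members were correlated, so these counts describe the samples and set no member apart.

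**Figure D4:**
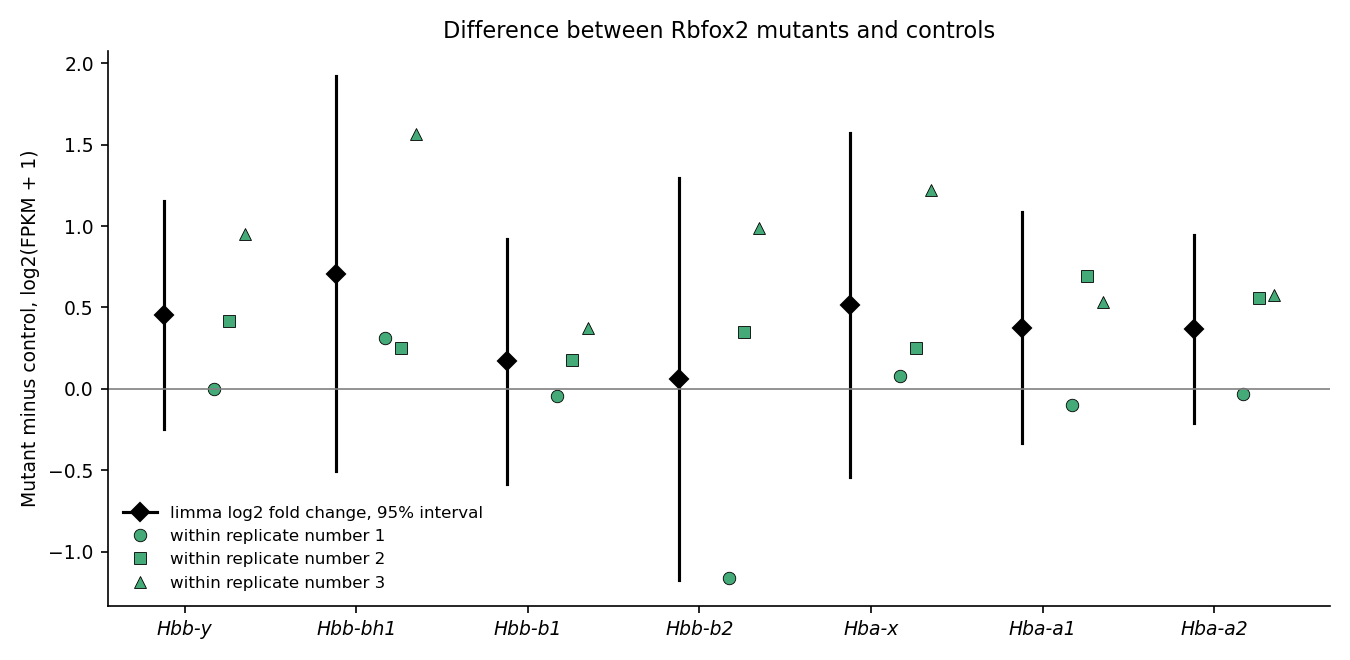
Difference between mutants and controls on the log2(FPKM + 1) scale for each member: the limma estimate over all samples with its 95% interval (black) and the difference within each replicate number (green). All 7 intervals cross 0, and the differences of the first replicates (circles) lie near or below those of the others.

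With the replicate number as a block in limma, 3 of the 7 members, *Hbb-bh1*, *Hba-a2* and *Hbb-y*, were higher in the mutants at an unadjusted p under 0.05, as were 2.31% of all genes in this fit. The 95% intervals were then 0.078 to 1.34 for *Hbb-bh1*, 0.051 to 0.68 for *Hba-a2* and 0.010 to 0.90 for *Hbb-y*. Their adjusted p-values in limma were 0.812, 0.809 and 0.818, so no member passed the adjusted threshold with the block either. In replicates 2 and 3 alone, *Hba-a1* and *Hba-a2* came nearest to that threshold, with log2 fold changes of 0.61 and 0.57 and adjusted p-values of 0.103 and 0.0971 from limma.

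For sums over the classes the picture was the same. Summed embryonic globin FPKM was 5645 ± 2268 for controls and 7705 ± 2097 for mutants (SD, n = 3 each), a log2 difference of 0.48 (exact permutation test, two-sided, p = 0.2). Summed adult globin FPKM was 1921 ± 793 and 2279 ± 222, a log2 difference of 0.32 (exact permutation test, two-sided, p = 0.4). All globins together differed by 0.45 on the log2 scale (exact permutation test, two-sided, p = 0.3). Without control replicate 1 this difference was 0.76, and without control replicate 2 it was 0.26, so its size rests on which control is in the mean.

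Other genes of the red cell were followed from lists of haem synthesis, iron uptake, transcription, membrane and other red cell proteins, with 39 genes of which 38 were in the table and 20 passed the filter. Of the 20, 1 was higher and 1 lower in the mutants at an unadjusted p under 0.05 in limma, where 0.706% and 0.954% of all genes were, none passed the adjusted threshold, and the median log2 fold change was 0.092. The pair was *Add2*, an adducin of the membrane skeleton, with a log2 fold change of 0.32, and *Slc11a2*, an iron transporter, at -0.25 (adjusted p = 1.0 each in limma). Of the 20, 3 did not overlap between the groups. *Zfpm1* was higher in every mutant than in any control, as were 2.63% of all genes. *Urod* and *Slc11a2* were lower in every mutant, as were 2.37% of all genes. Many genes on these lists are also used outside red cells.

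Of the 38 haem and red cell genes in the table, 22 (57.9%) had their 3 highest values in control replicate 1 and mutant replicates 1 and 3, as *Hba-x* had, against 7.58% of all genes tested. The 38 include genes that did not pass the filter and the genes tested do not, so these shares are over unlike sets. Of the 20 that passed the filter, only *Alas2*, *Uros*, *Cpox*, *Fech*, *Tfrc*, *Slc25a37*, *Slc4a1* and *Car2* had this pattern. Most of the 20 did not, so the share of 57.9% rests largely on genes below the filter. *Alas2*, the erythroid enzyme of the first step of haem synthesis, was at 27.9, 16.8 and 15.4 FPKM among the controls and 28.4, 18.4 and 29.2 in the mutants. *Slc4a1*, the band 3 anion exchanger of the red cell membrane, was at 22.03, 11.6 and 11.8 among the controls and 26.7, 11.3 and 26.1 in the mutants. Both genes were among the 22. Their log2 fold changes were 0.34 (standard error 0.25) and 0.44 (standard error 0.37), with an adjusted p of 1.0 each in limma. *Rhag* and *Rhd*, which encode surface proteins of the red cell and did not pass the filter, were among the 22 as well. Others were not, such as *Trim58* and *Gfi1b*, and 8 of the 38 had a Pearson r below 0 with the summed globins, for which no share over all genes was computed.

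The haem enzymes that all cells use varied less. *Alad*, *Uros*, *Urod* and *Fech* had log2 fold changes between -0.093 and 0.078, and of the 8 haem synthesis genes 4 were above 0. The erythroid factors *Gata1* and *Klf1* were at 0.369 to 1.34 and 0.896 to 2.28 FPKM, below the filter in every sample. The 9 regulators linked to globin switching, which are also expressed outside blood, had 7 members tested, a median log2 fold change of 0.011 and none with an unadjusted p under 0.05 in limma. *Bcl11a*, a repressor of embryonic globins in definitive red cells, was at 39.1 ± 3.17 and 40.6 ± 1.73 FPKM and *Sox6*, its partner, at 7.48 ± 0.998 and 7.24 ± 0.451 (SD, n = 3 each).

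The summed levels of markers of other cells in blood and vessels overlapped between the groups. *Egfl7* of the endothelium and *Cd68* of macrophages were lower in every mutant than in any control, as were 2.37% of all genes tested. Each was the only gene of its list without overlap, and *Cd68* did not pass the filter. Summed FPKM of 9 endothelial genes was 145 to 166 for controls and 143 to 157 for mutants, and that of 8 macrophage genes 40.8 to 48.7 and 40.1 to 52.1, with no gene of either list at 0 throughout. The sums of 6 platelet genes were 17.5 to 25.5 for controls and 22.2 to 28.5 for mutants. Among the 8 endothelial genes tested, *Egfl7* was lower in mutants at an unadjusted p under 0.05 in limma (log2 fold change -0.20, adjusted p = 1.0), and the median of the list was 0.0039. Of the 9 endothelial genes, 7 had an r below 0 with the summed globins, down to -0.85 for *Pecam1*, and *Cldn5* (0.62) and *Sox17* (0.61) had one above 0. All 8 macrophage genes had an r below 0 and all 6 platelet genes one above 0, from 0.44 to 0.70. These are descriptions over 6 samples that share their libraries. The share of all genes with an r of either sign was not computed, so the counts have no background to be read against. The part of these cells in the globin values was not tested.

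**Figure D5:**
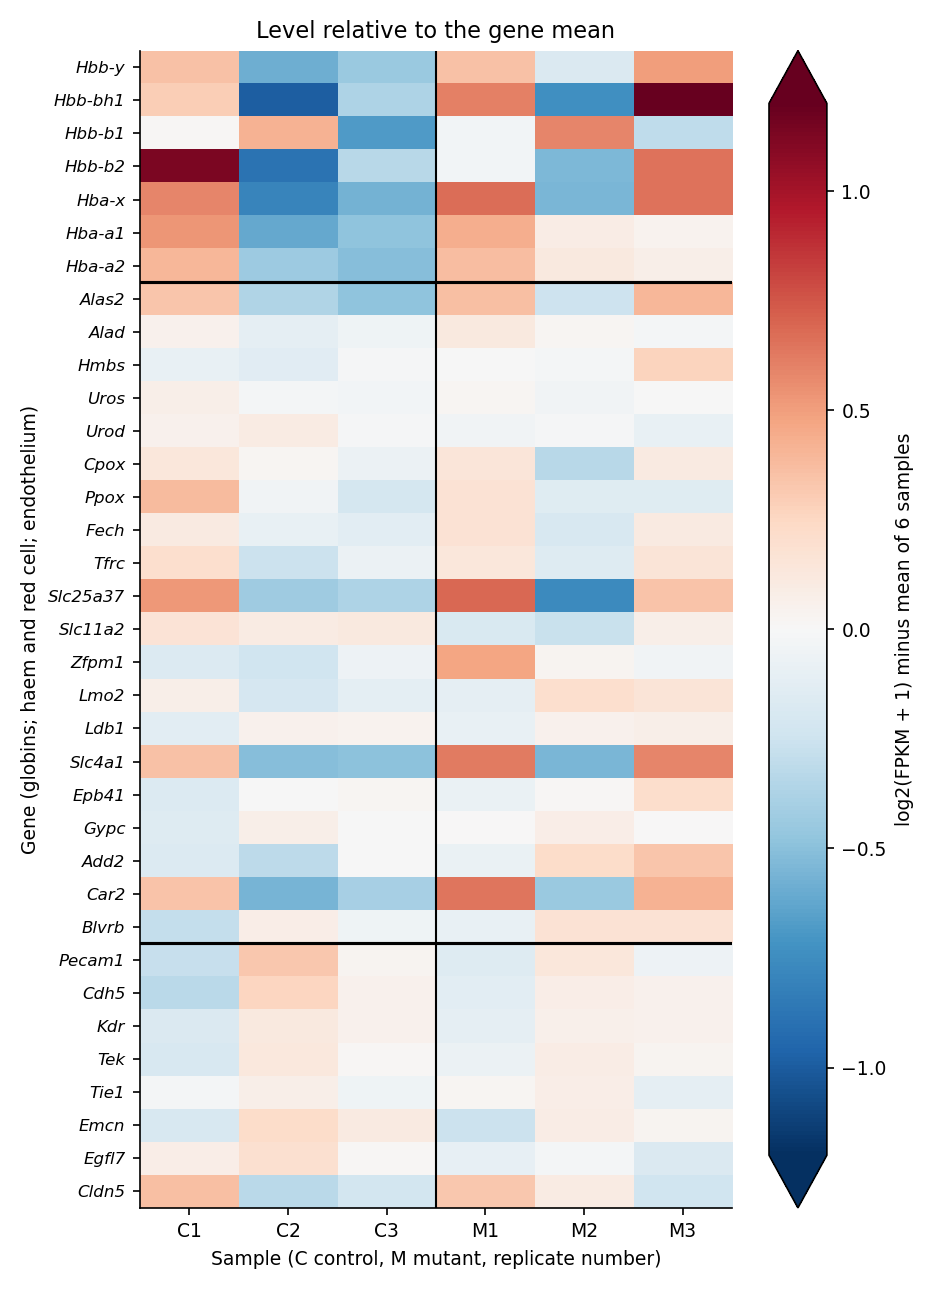
Log2(FPKM + 1) minus the mean of the 6 samples, as colour, for the 7 globins (top), the 20 tested haem and red cell genes (middle) and the 8 tested endothelial genes (bottom) in controls (C1 to C3) and mutants (M1 to M3). *Alas2*, *Slc25a37*, *Slc4a1* and *Car2* are high in C1, M1 and M3, like the embryonic globins, and most endothelial genes are not.

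Among the 10054 other genes tested, the 5 whose log2 values were most like the summed embryonic globins across the 6 samples were *Gpx1* (Pearson r = 0.999), *Mrs2* (0.990), *Unc119b* (0.987), *Fzd3* (0.984) and *E2f2* (0.981). *Gpx1*, a glutathione peroxidase, was at 241, 191 and 199.6 FPKM among the controls and 247, 211 and 253 in the mutants, so it kept the order of the embryonic globins over a range of 1.32 times. The 5 most like the summed adult globins were *Abca2* (0.995), *Mpc2* (0.992), *Sarm1* (0.990), *Camsap3* (0.985) and *Bcap29* (0.982). An r over 0.9 was reached by 1.15% of genes with the embryonic sum and by 2.38% with the adult sum. The genes named were picked as the highest of 10054, so their r describes these 6 samples and was not tested.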

How the data were processed

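Poly(A)+ RNA of E12.5 craniofacial tissue was analysed in 3 controls and 3 mutants, grouped by their labels. The authors aligned reads with STAR to GRCm38 and deposited FPKM per gene and sample (FastQC 0.11.4, STAR and Cuffdiff are named in the submitters' processing notes, and the annotation and the assignment of shared reads are not given in the sources used here). The 6 single-sample tables and the table of all samples held the same values (0 differences). Read counts were not recovered, since no more than 31.2% of low genes stood at 1 ratio between a pair of samples, so no interval for counting error is given.

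Genes with FPKM over 5 in all controls or all mutants entered limma 3.58.1 (R 4.3.3) on log2(FPKM + 1) with an intensity trend, checked on simulated data. Class sums, on the log2 scale, and shares were compared by exact two-sided permutation tests with scipy 1.17.1. Samples with the same replicate number deviated together from their group means (r of 0.64, 0.26 and 0.51 across genes, against -0.68 to 0.40 for samples with different numbers, where control replicate 3 with mutant replicate 2 exceeded the second pair), so the fit with a replicate block is given where it changes a call. The pairing comes from these values, and no source ties the numbers to litters. The study states in general that its experiments used littermates unless noted otherwise, without saying which of these samples shared a litter. It also describes the replicates as biologically independent.

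Named genes are the members, the other globins, the red cell and switching lists, the 5 genes most like each globin sum, and checks. Members and lists were chosen with earlier results of these data known. Of 104 list entries, 102 had a table row, matched by deposited name or by identifier, and *Ahsp* and *Hba-ps3* were not analysed here. Alternatives were another pseudocount, scaling, filter and trend setting, the block, and samples left out.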

Additional observations from a re-analysis of the deposited data

How the results depend on the processing

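With each sample left out in turn, the log2 fold changes ran from 0.27 to 0.74 for *Hbb-y*, 0.29 to 1.25 for *Hbb-bh1*, 0.25 to 0.94 for *Hba-x*, 0.16 to 0.74 for *Hba-a1*, 0.20 to 0.66 for *Hba-a2*, -0.13 to 0.42 for *Hbb-b1* and -0.37 to 0.64 for *Hbb-b2*, and the cause of the changes of sign was not tested. *Hbb-b1* was at -0.13 without control replicate 3 and -0.083 without mutant replicate 2, and *Hbb-b2* at -0.37, -0.093 and -0.25 without control replicate 2, control replicate 3 and mutant replicate 3. The other 5 members stayed above 0 in 14 of 14 alternatives, and no member passed an adjusted p of 0.05 in any (limma, adjusted p from 0.0971 to 1.0).

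Members with an unadjusted p under 0.05 in limma numbered 0 in the analysis as reported, 1 with quantile normalization, 3 with the replicate block, 3 in replicates 2 and 3 only, and 0 to 4 with samples left out, with 4 without control replicate 1 and 1 without mutant replicate 2. Over all genes, the count was 167 as reported, 604 with the replicate block, 304 with an FPKM filter of 1, 663 with no filter, 1130 in replicates 2 and 3 only, and 78 to 690 with samples left out, with 690 without control replicate 1, 414 without mutant replicate 1, 110 without mutant replicate 2 and 78 without control replicate 2. Genes past an adjusted p of 0.05 numbered 0 as reported, 4 in replicates 2 and 3 only and 0 to 5 with samples left out, with 5 without mutant replicate 3. The replicate block changed no adjusted call.

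Leaving samples out gave differences of -1.48 to 8.15 percentage points for the embryonic share of the alpha class, 0.51 to 2.87 for that of the beta class, and -0.088 to 0.11 on the log2 scale for the alpha to beta ratio, which was 0.071 without control replicate 1 and 0.11 without mutant replicate 3. Summed globins ran from 0.26 to 0.76, embryonic sums from 0.28 to 0.79 and adult sums from 0.13 to 0.63. With the replicate block, exact sign-flip tests on 3 pairs cannot go below p = 0.25. Adding *Hbb-bs* and *Hbb-bt* was not run, since the entries named *Hbb-b1* and *Hbb-b2* carry their identifiers. The study gives depth only as a range over its samples, and the read count behind each FPKM was not recovered. No interval for counting error can therefore be given, also not for the globins near 0.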
